A study of Sus scrofa with 10 samples.

Results

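The 10 genes described here make, sense and inactivate prostaglandins: the cyclooxygenases PTGS1 and PTGS2, the prostaglandin E synthases PTGES, PTGES2 and PTGES3, the prostaglandin F receptor PTGFR, the prostaglandin E receptors PTGER2, PTGER3 and PTGER4, and the inactivating enzyme HPGD. Each was the protein-coding locus of the deposited table whose gene name, or 1 of its names where a locus carried several, equals the symbol. All 10 were found among 43499 loci, of which 19972 were protein-coding. Expression was measured by RNA-seq in the ovaries of 10 gilts after the surface follicles had been removed, with 1 library per pig. In the control group 5 gilts received saline, and in the rpFSH group 5 gilts received 1000 IU of rpFSH, a recombinant pig follicle-stimulating hormone produced in a hamster ovary cell line. Every gilt had first eaten altrenogest, an oral progestin that holds the cycle, in a daily dose of 20 mg over 18 days, starting when it was 210 days old and followed by 2 days without it, and ovaries were collected at an age of 234 days. None of the 10 genes differed between the groups beyond the spread between pigs. On a log2 scale that compresses low genes, PTGFR and PTGES varied more from pig to pig than nearly all other tested loci.

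As background, cyclooxygenases turn arachidonic acid into an unstable intermediate that terminal synthases convert to PGE2, PGF2α and other prostanoids. PTGS1 is commonly described as the constitutive enzyme and PTGS2 as the enzyme induced by gonadotropins and inflammatory signals. In the ovary, prostaglandins made in the preovulatory follicle are needed for its rupture, and PGF2α acting on luteal cells ends the life of the corpus luteum, the gland that forms from the ovulated follicle and secretes progesterone. In whole tissue, fewer cells of a type and less RNA per cell cannot be told apart.

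Levels are given as FPKM, fragments per kilobase of transcript scaled to the mapped fragments of the library. Genes of different length can be compared in FPKM as far as the length assigned to each locus holds. Differences are rpFSH minus control in log2 (FPKM + 1), a scale that understates the change of low genes, with a 95% confidence interval (CI) and a P value from the limma moderated test across all loci. The libraries held 64873797 to 75114003 counts. Markers of granulosa, theca, luteal and oocyte types were detected, while FOXL2, HSD3B1, HAS2, PF4 and PAX8 were not matched by symbol and not analysed here. There were 4 libraries that stood apart. The summed FPKM of 5 luteal and steroidogenic markers, chiefly CYP11A1 and STAR of progesterone synthesis, was 2536 in control pig 2, 1435 in rpFSH pig 1 and 348 in rpFSH pig 4, against 16.4 to 56.3 in the other 7 pigs. The summed FPKM of 8 markers of oviduct-type and multiciliated epithelium was 38.8 in control pig 2 and 103 in control pig 5, against 3.13 to 5.44 in the other 8 pigs. Control pig 5 was also highest for 5 smooth muscle markers, at 1789 against 65.3 to 484 elsewhere. Surface follicles had been removed, yet 5 granulosa markers still summed to between 4.83 and 93.0 FPKM. Of the 8 epithelial markers 2 had P under 0.05 and were lower in the rpFSH group, as were 2.21% of all tested loci, namely DNAH5 (exact permutation p = 0.0476, adjusted p = 1.00 in limma) and DNAAF1 (exact permutation p = 0.0079, the smallest possible, adjusted p = 1.00). DNAH5 was at 7.32 and 12.6 FPKM in control pigs 2 and 5 and at most 1.19 FPKM in the other control pigs. DNAAF1 was at 0.744, 1.87, 0.782, 0.863 and 2.40 FPKM in control pigs 1 to 5 and at most 0.684 FPKM in the rpFSH pigs. Its groups thus did not overlap, as for 0.626% of all tested loci. No marker of the luteal list had P under 0.05.

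**Figure D1:**
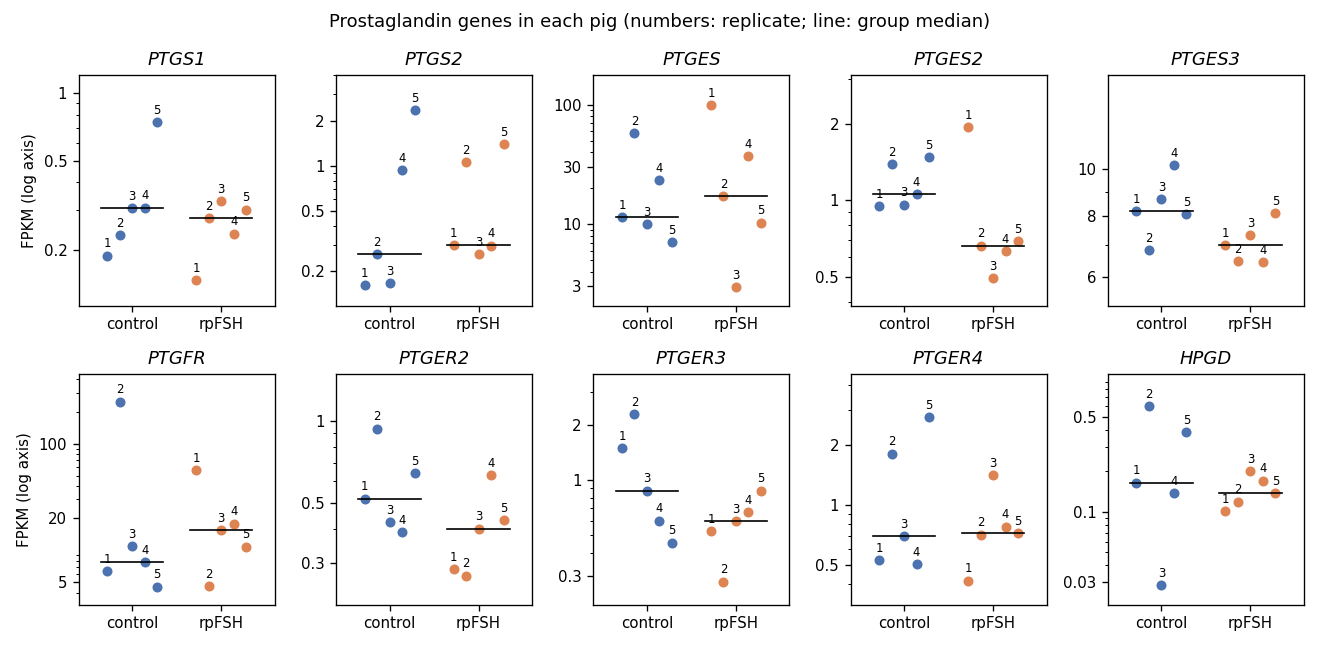
FPKM of the 10 prostaglandin genes in each pig (log axes, each panel with its own scale), control pigs in blue and rpFSH pigs in orange, with the replicate number above each point and a line at the group median. The groups overlapped for each gene, and PTGFR of control pig 2, at 248 FPKM, lay farthest from its group.

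Both cyclooxygenases were at low levels. PTGS1 (chromosome 1, 262456220 to 262484227 on Sscrofa11.1, plus strand) was at 0.189, 0.233, 0.307, 0.309 and 0.742 FPKM in control pigs 1 to 5 and at 0.147, 0.277, 0.330, 0.237 and 0.302 FPKM in rpFSH pigs 1 to 5. Only control pig 5 exceeded the rpFSH range, and 4 of 5 rpFSH pigs lay below the control median. The mean was 0.356 ± 0.222 FPKM for the control pigs and 0.259 ± 0.0714 FPKM for the rpFSH pigs (SD, n = 5 each), a difference of -0.10 (CI -0.33 to 0.14, limma P = 0.392, exact permutation p = 0.476). PTGS2 (chromosome 9, 127848603 to 127859287, minus strand) was at 0.162, 0.259, 0.167, 0.940 and 2.35 FPKM in the control pigs and at 0.297, 1.07, 0.259, 0.296 and 1.39 FPKM in the rpFSH pigs. It fell into a high set of control pigs 4 and 5 and rpFSH pigs 2 and 5, and a low set of the remaining 6 pigs, with both groups in each set. The group difference of PTGS2 was -0.02 (CI -0.71 to 0.68, limma P = 0.958, exact permutation p = 1.00). Within a pig, the ratio of PTGS2 to PTGS1 FPKM ran from 0.544 to 4.61 and was above 1 in 7 of 10 pigs, with a mean of 1.74 ± 1.26 for control pigs and 2.50 ± 1.66 for rpFSH pigs (SD, n = 5 each).

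Among the terminal PGE synthases, PTGES, the inducible membrane enzyme, was high and variable. PTGES (chromosome 1, 269911793 to 269924481, minus strand) was at 11.4, 58.0, 10.0, 23.4 and 7.07 FPKM in the control pigs and at 99.5, 17.2, 2.96, 36.8 and 10.3 FPKM in the rpFSH pigs. The lowest and the highest value both came from the rpFSH group, a 33.6-fold range that enclosed the whole control group. The group difference was 0.19 (CI -1.61 to 2.00, limma P = 0.818, exact permutation p = 0.841). PTGES2 (chromosome 1, 268581835 to 268590836, minus strand), a second membrane-associated synthase, was at 0.950, 1.39, 0.962, 1.06 and 1.48 FPKM in the control pigs and at 1.94, 0.664, 0.496, 0.630 and 0.690 FPKM in the rpFSH pigs. In 4 of 5 rpFSH pigs PTGES2 lay below every control pig, and rpFSH pig 1 lay above every control pig. The difference was -0.24 (CI -0.64 to 0.15, limma P = 0.205, exact permutation p = 0.254), and without rpFSH pig 1 it was -0.41 (limma P = 0.00349, adjusted p = 0.869). PTGES exceeded PTGES2 in FPKM in 10 of 10 pigs, by 4.77-fold to 58.5-fold. The length implied by counts and FPKM was 1.37 kb for PTGES and 6.54 kb for PTGES2. In control pig 5 each of them had 724 counts.

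PTGES3, the cytosolic synthase also known as the Hsp90 co-chaperone p23, had the narrowest range of the 10 genes, 1.59-fold. On chromosome 5 (22000340 to 22023655, minus strand), it was at 8.21, 6.81, 8.68, 10.2 and 8.07 FPKM in the control pigs and at 6.98, 6.46, 7.32, 6.43 and 8.12 FPKM in the rpFSH pigs. All 5 rpFSH pigs lay below the control median of 8.21 FPKM, but the groups overlapped. The mean was 8.40 ± 1.23 FPKM for the control pigs and 7.06 ± 0.702 FPKM for the rpFSH pigs (SD, n = 5 each), a difference of -0.22 (CI -0.47 to 0.04). Its limma P of 0.0918 and its exact permutation p of 0.0794 were the smallest of the 10 genes, and its adjusted p was 1.00. Without control pig 2, the lowest control pig, the limma P was under 0.05, with an adjusted p of 0.940.

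PTGFR, the receptor through which PGF2α raises intracellular calcium, showed the widest range of the 10 genes. On chromosome 6 (134727342 to 134776763, minus strand), PTGFR was at 6.40, 248, 10.9, 7.68 and 4.53 FPKM in the control pigs and at 56.0, 4.57, 15.4, 17.8 and 10.8 FPKM in the rpFSH pigs. Control pig 2 was 54.6-fold above control pig 5, and its 121006 counts on this locus made up 0.162% of the library. The log2 ratio of the group means was -1.41 and that of the group medians was 1.00, so the direction depended on the summary used. The fitted difference was 0.03 (CI -2.16 to 2.21, limma P = 0.980, exact permutation p = 0.968), and without control pig 2 it was 1.01 (limma P = 0.0985), with 4 of 5 rpFSH pigs above the median of all 5 control pigs. PTGFR was the highest of the 4 receptors in 10 of 10 pigs and held between 54.0% and 98.0% of their summed FPKM.

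The PGE receptors were much lower than PTGFR. PTGER2, which raises cyclic AMP (chromosome 1, 181955298 to 182006748, plus strand), was at 0.518, 0.937, 0.423, 0.388 and 0.644 FPKM in the control pigs and at 0.284, 0.269, 0.402, 0.631 and 0.430 FPKM in the rpFSH pigs. The 2 lowest values were from the rpFSH group and the 2 highest from the control group, and the difference was -0.17 (CI -0.42 to 0.08, limma P = 0.163, exact permutation p = 0.159). PTGER3, which mainly lowers cyclic AMP (chromosome 6, 141959397 to 142045742, plus strand), was at 1.49, 2.28, 0.872, 0.598 and 0.454 FPKM in the control pigs and at 0.525, 0.278, 0.596, 0.666 and 0.874 FPKM in the rpFSH pigs. Control pigs 1 and 2 lay above all rpFSH pigs, while control pig 5 lay below 4 of them. The difference was -0.37 (CI -0.85 to 0.10, limma P = 0.109, exact permutation p = 0.175), and without control pig 5 it was -0.50 (limma P = 0.0367, adjusted p = 0.999). PTGER4, the other receptor that raises cyclic AMP (chromosome 16, 25670862 to 25686551, plus strand), was at 0.526, 1.80, 0.695, 0.502 and 2.76 FPKM in the control pigs and at 0.416, 0.707, 1.41, 0.776 and 0.721 FPKM in the rpFSH pigs. Control pigs 2 and 5 were the 2 highest, and the difference was -0.24 (CI -0.82 to 0.34, limma P = 0.382, exact permutation p = 0.444). Among these 3 receptors PTGER3 was highest in 6 pigs and PTGER4 in 4 pigs, and the ratio of PTGER2 plus PTGER4 to PTGER3 ran from 0.703 to 7.51.

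HPGD, the dehydrogenase that starts the inactivation of PGE2 and PGF2α, was the lowest of the 10 genes by median level. On chromosome 14 (15718522 to 15763710, plus strand), it was at 0.164, 0.598, 0.0287, 0.137 and 0.386 FPKM in the control pigs and at 0.101, 0.118, 0.199, 0.169 and 0.136 FPKM in the rpFSH pigs. The control group held both the lowest and the 2 highest values, the latter in pigs 2 and 5. Its counts ran from 15 to 332, so that counting error alone was 25.8% in control pig 3. The mean was 0.263 ± 0.228 FPKM for the control pigs and 0.145 ± 0.0397 FPKM for the rpFSH pigs (SD, n = 5 each), a difference of -0.12 (CI -0.37 to 0.13, limma P = 0.299, exact permutation p = 0.349).

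Set against all loci, the group comparison of the 10 genes gave no call. All 10 passed the filter of a mean of at least 0.1 FPKM and were tested among 15170 protein-coding loci, of which 3.03% had P under 0.05 in limma, 1.13% were also past a log2 ratio of group means of 1 in either direction, and 0% had an adjusted p under 0.05. Of the 10 genes 0 had P under 0.05 in limma, and each adjusted p was 1.00. In edgeR 0 of the 10 had P under 0.05, against 4.73% of all tested loci, of which 3.12% were also past the log2 ratio and 0% had an adjusted p under 0.05. In DESeq2, which gave no P for PTGFR, 0 of the other 9 had P under 0.05, against 6.04%, 3.47% and 0.567% of all tested loci by the same 3 rules. The 2 groups separated without overlap for 0 of the 10 genes and for 0.626% of all tested loci. The difference was below 0 for 8 of the 10 genes and for 63.8% of all tested loci, the log2 ratio of mean FPKM was below 0 for 9 of the 10 and for 64% of all, and the median difference was -0.15 over the 10 genes and -0.05 over all tested loci. The intervals of PTGES and PTGFR reached past a change of 1 in both directions. For the genes below 1 FPKM the scale is compressed, so a narrow interval does not bound their fold change.

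**Figure D2:**
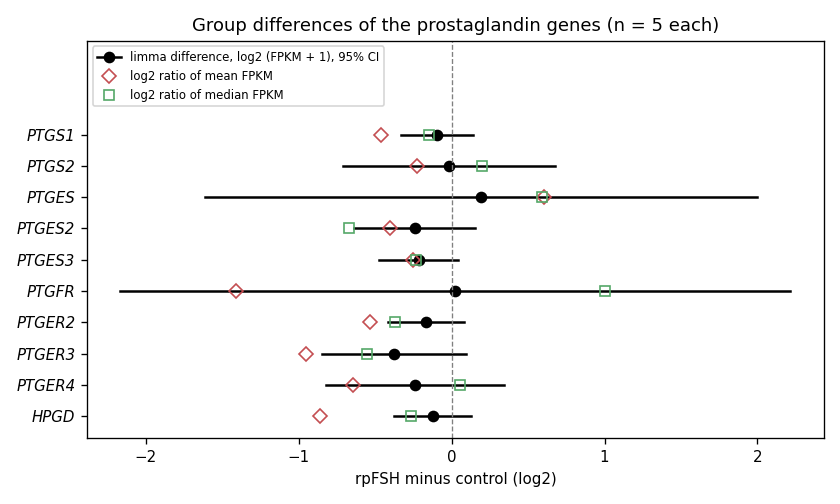
Difference between rpFSH and control (log2, x axis) for each prostaglandin gene, with the limma difference in log2 (FPKM + 1) and its 95% CI as a filled circle and bar, the log2 ratio of mean FPKM as a diamond and that of median FPKM as a square (n = 5 pigs each). All 10 intervals include 0, and for PTGFR the ratio of means (-1.41) and of medians (1.00) point in opposite directions.

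In order of median level over the 10 pigs, PTGES led with 14.3 FPKM, followed by PTGFR with 10.8 and PTGES3 with 7.70. The other 7 genes were below 1 FPKM, in the order PTGES2 at 0.956, PTGER4 at 0.714, PTGER3 at 0.632, PTGER2 at 0.427, PTGS2 at 0.296, PTGS1 at 0.290 and HPGD at 0.150. Of the 9 steps between neighbours in this order, those from PTGES3 to PTGES2 (in 10 of 10 pigs) and from PTGER3 to PTGER2 (in 9 of 10 pigs) had a mean within-pig log2 ratio larger than its SD, and the other 7 did not. By median FPKM, a terminal synthase and the F receptor were thus the highest of these transcripts. The cyclooxygenases, which act upstream of both, were among the lowest. This order depends on the length assigned to each locus, which counts and FPKM put at 1.37 kb for PTGES and 16.1 kb for PTGES3. Counts ran from 265 to 9971 for PTGES and from 7213 to 12223 for PTGES3. The ordering by spread was different. Only 0.191% of tested loci had a larger SD of log2 (FPKM + 1) within groups than PTGFR. The share was 0.422% for PTGES, 11.6% for PTGS2, 18.1% for PTGER4 and 80.8% for PTGES3. This scale compresses low genes, so that HPGD, with a 20.8-fold range, stood at 72.7%.

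PTGFR and PTGES were highest in the pigs whose luteal and steroidogenic markers were highest. For PTGFR the 3 highest pigs were control pig 2 (248 FPKM), rpFSH pig 1 (56.0 FPKM) and rpFSH pig 4 (17.8 FPKM), and for PTGES they were rpFSH pig 1 (99.5 FPKM), control pig 2 (58.0 FPKM) and rpFSH pig 4 (36.8 FPKM). In the same pigs CYP11A1, which cleaves the side chain of cholesterol, was at 1758 FPKM in control pig 2, 787 FPKM in rpFSH pig 1 and 178 FPKM in rpFSH pig 4, against 4.85 to 34.4 FPKM in the other 7 pigs. Over all 10 pigs, Pearson's r of the mean log2 (FPKM + 1) of the 5 markers was 0.885 with PTGES and 0.881 with PTGFR. The permutation p was 0.00039 (adjusted p = 0.0390) for PTGES and 0.0018 (adjusted p = 0.0600) for PTGFR. The adjustment covered 100 relations of genes with marker lists, of which 1 passed by r and 0 by rho. Without control pig 2 and rpFSH pig 1, r was 0.711 with PTGES and 0.522 with PTGFR. Because the pigs fall into separate sets on the summed markers, r was also taken within the low set. Over the 7 pigs with low luteal markers, Pearson's r of the marker mean of log2 (FPKM + 1) was 0.010 with PTGFR. The exact permutation p was 0.978. With PTGES, r was 0.443 (exact permutation p = 0.332). Both tests were two-sided on log2 values. Without control pig 5 and rpFSH pig 3, the farthest from the median marker level, r over the remaining 5 was 0.161 with PTGFR and -0.786 with PTGES. Of the 10 genes, HPGD had the smallest exact permutation p within the 7 pigs (r = -0.823, p = 0.00516, adjusted p = 0.0516). For HPGD, r was -0.629 over the remaining 5. The 7 pigs covered only a small part of the marker range, so r within them does not describe the relation over all 10 pigs. The part of the luteal markers in the levels of PTGFR and PTGES was not tested.

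**Figure D3:**
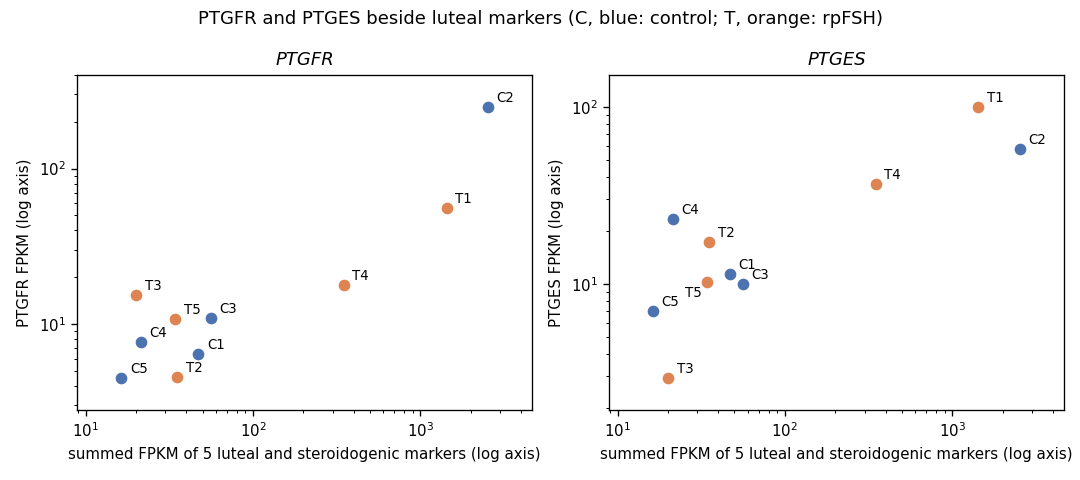
FPKM of PTGFR (left) and PTGES (right) against the summed FPKM of 5 luteal and steroidogenic markers in each pig, on log axes, with control pigs in blue (C) and rpFSH pigs in orange (T). Control pig 2, rpFSH pig 1 and rpFSH pig 4 stand at the upper right in both panels, and the other 7 pigs have marker sums of 16.4 to 56.3.

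The loci whose levels followed PTGFR most closely over the 10 pigs were VEGFC, a lymphatic growth factor (r = 0.979, rho = 0.927), MLYCD, a malonyl-CoA decarboxylase (r = 0.977), LACTB2 (r = 0.970), SRXN1, which repairs oxidized peroxiredoxins (r = 0.968), and SOAT1, which esterifies cholesterol (r = 0.967). VEGFC was at 8.56 FPKM in control pig 2 and at 4.85 FPKM in rpFSH pig 1, the 2 pigs highest for PTGFR, against 1.05 to 2.74 FPKM elsewhere. Without the 2 pigs farthest from the median of PTGFR, r was 0.852 for VEGFC and 0.686 for SOAT1. PTGFR had 185 of 15169 other tested loci at r above 0.9, and PTGS2 had 5. These likenesses are descriptions over 10 pigs that share the libraries named above.

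PTGS2 was most like CXCL8, the neutrophil chemokine interleukin 8 (r = 0.968, rho = 0.927, and r = 0.987 without the 2 farthest pigs). Next came PCOLCE, an enhancer of procollagen processing (r = 0.909), the inflammatory cytokine IL6 (r = 0.909), C22orf39 (r = 0.895) and the aminopeptidase XPNPEP2 (r = 0.891). CXCL8 was at 2.13 to 8.99 FPKM in the 4 pigs with high PTGS2 and at or below 0.615 FPKM in the 6 pigs with low PTGS2. IL6 was at 1.11 to 2.52 FPKM in the 4 high pigs and at 0.203 to 0.884 FPKM in the 6 low pigs. The sets overlapped for PCOLCE (16.5 to 39.5 FPKM in the high pigs, 10.5 to 18.1 FPKM in the low pigs). They also overlapped for C22orf39 (0.558 to 1.52 and 0.114 to 0.731 FPKM) and XPNPEP2 (0.185 to 0.418 and 0.0760 to 0.192 FPKM). All of these loci were picked for their high r with PTGS2, so a split along its sets is no separate evidence. Neither CXCL8 nor IL6 differed between the treatment groups beyond the spread between pigs, with an exact permutation p of 0.929 for CXCL8 and 0.913 for IL6. The summed level of 5 immune cell markers ran from 31.4 to 48.9 FPKM over the 10 pigs, of which CD68 made up 22.4 to 44.4 FPKM. The other 4 varied more widely, among them CD163 from 1.90 to 8.65 FPKM, PTPRC from 0.968 to 3.06 FPKM and CD3E from 0.127 to 0.775 FPKM. The part of immune cells in the level of PTGS2 was not tested.

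**Figure D4:**
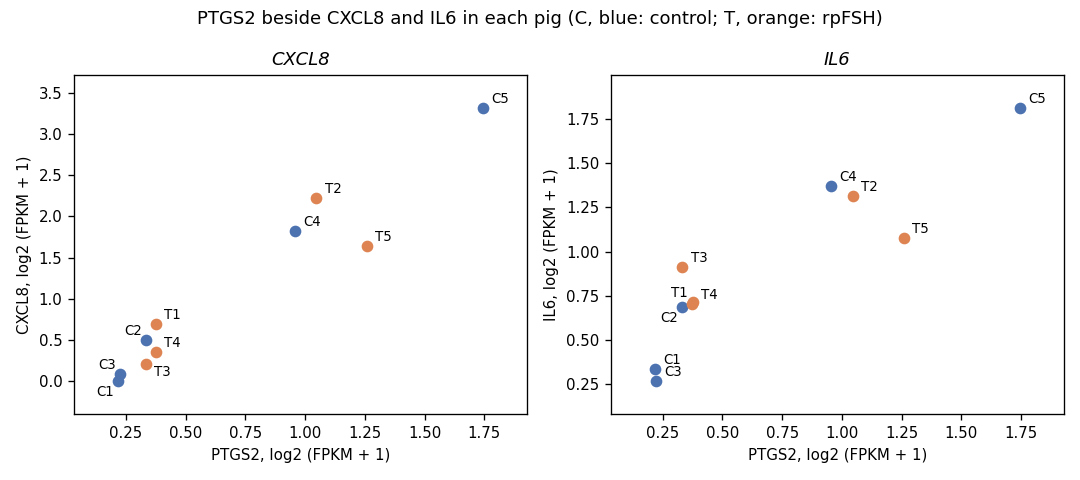
CXCL8 (left) and IL6 (right) against PTGS2 in each pig, all as log2 (FPKM + 1), with control pigs in blue (C) and rpFSH pigs in orange (T). Control pigs 4 and 5 and rpFSH pigs 2 and 5 are high on both axes in both panels, so the high set holds pigs of both groups.

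HPGD and PTGER4 were both highest in control pigs 2 and 5, the pigs with the high epithelial marker sums of 38.8 and 103 FPKM. PTGER2, too, was highest in these 2 pigs. The loci most like HPGD were SFT2D2 (r = 0.975), the carnosine dipeptidase CNDP1 (r = 0.970), the potassium channel KCNJ5 (r = 0.964), the epithelial sodium channel subunit SCNN1A (r = 0.964) and the secretory protein lactotransferrin LTF (r = 0.961). Without the 2 pigs farthest from the median of HPGD, r was 0.860 for SFT2D2 and 0.530 for LTF. Without control pigs 2 and 5, the difference between the groups was 0.0462 for HPGD and 0.18 for PTGER4, with limma P above 0.05 for both, above 0 in place of below it. Over the 10 pigs, PTGER2, HPGD and PTGER4 had a rho of 0.855, 0.842 and 0.745 with the mean log2 level of the immune markers. With the epithelial markers rho was 0.539, 0.467 and 0.406. Pearson's r was 0.850, 0.668 and 0.619 with the immune markers and 0.666, 0.813 and 0.875 with the epithelial markers. None of these relations had an adjusted p under 0.05. The part of the epithelial or immune markers in these levels was not tested.

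Over all 45 pairs of the 10 genes, 7 had a permutation p under 0.05 for Pearson's r and 4 for Spearman's rho, and 0 of either after Benjamini-Hochberg adjustment. The strongest pair was PTGER2 and HPGD (r = 0.841, permutation p = 0.00368, adjusted p = 0.166; rho = 0.721, permutation p = 0.0230, adjusted p = 0.345). Without control pigs 2 and 5, the 2 pigs farthest from the median of PTGER2, its r was 0.352 and its rho 0.452. The relation of PTGES and PTGFR (r = 0.653, permutation p = 0.0388, adjusted p = 0.291; rho = 0.527, permutation p = 0.123, adjusted p = 0.741) had an r of 0.021 without control pig 2 and rpFSH pig 1. The pair of cyclooxygenases had an r of 0.760 (permutation p = 0.0127, adjusted p = 0.214) and a rho of 0.418 (permutation p = 0.230, adjusted p = 0.741), and its r was 0.403 without control pig 5 and rpFSH pig 1. Deviations from the group means gave nearly the same r for these pairs, at 0.818, 0.654 and 0.793.

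**Figure D5:**
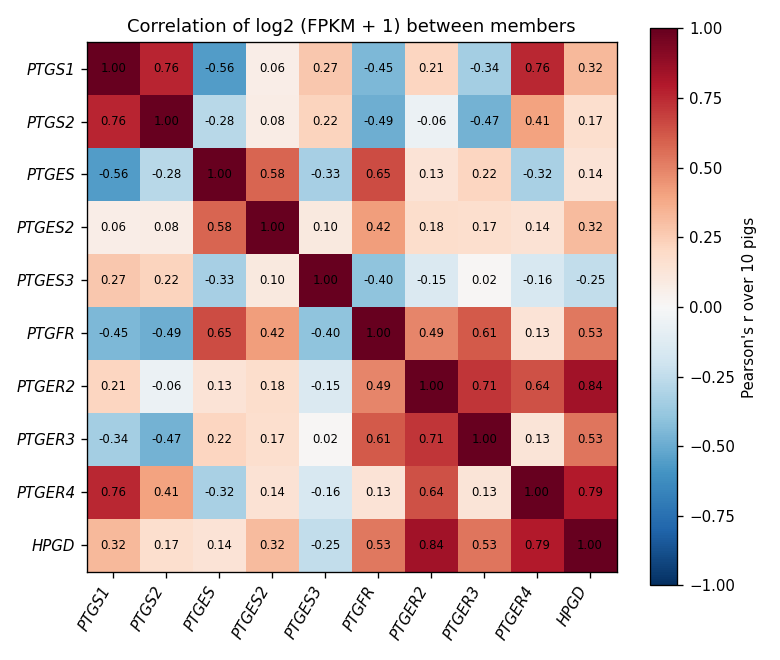
Pearson's r of log2 (FPKM + 1) between the 10 prostaglandin genes over 10 pigs, with the colour scale from -1 to 1 and r printed in each cell. The largest r off the diagonal is that of PTGER2 and HPGD (0.84), and no pair passed adjustment over the 45 pairs.

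The rest of the pathway was read from a list of 41 other prostanoid genes, of which 33 were found and 30 tested. At P under 0.05 in limma 0 were higher and 1 was lower in the rpFSH group, where all tested loci gave 0.817% higher and 2.21% lower, and 0 passed the rule that also asks for a log2 ratio of means past 1. The lower gene was PTGFRN, which encodes a membrane protein known as a negative regulator of PTGFR. PTGFRN was at 31.1, 41.5, 17.2, 26.2 and 19.5 FPKM in the control pigs and at 9.53, 31.4, 12.7, 9.91 and 16.6 FPKM in the rpFSH pigs. In 4 of 5 rpFSH pigs it lay below every control pig, and rpFSH pig 2 lay above 4 of 5 control pigs. The difference was -0.79 (CI -1.52 to -0.06, limma P = 0.0369, adjusted p = 1.00, exact permutation p = 0.0714). Its P was under 0.05 in 8 of 21 alternative analyses, and neither edgeR nor DESeq2 was among them.

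Among those other genes, the 3 with the highest mean level were PTGFRN at 21.6 FPKM, ACSL4, which activates arachidonic acid, at 14.2 FPKM, and the prostacyclin synthase PTGIS at 10.4 FPKM. ACSL4 was at 63.2 FPKM in control pig 2, 33.8 FPKM in rpFSH pig 1 and 13.2 FPKM in rpFSH pig 4, against 3.69 to 5.94 FPKM in the other 7 pigs, so that the pigs highest for PTGFR and PTGES were also the highest for ACSL4. PTGIS was highest in control pig 5, at 25.4 FPKM, against 4.99 to 14.0 FPKM in the other pigs. Of the 55 protein-coding loci that the table annotates with the KEGG term for arachidonic acid metabolism, 43 were tested, among them 5 of the 10 genes. None of the 43 had P under 0.05 in limma, and edgeR and DESeq2 each called 2 as lower, the glutathione peroxidases GPX6 (adjusted p = 1.00 and 0.285) and GPX2 (adjusted p = 0.997 and 0.322), where they called 3.12% and 3.47% of all tested loci in either direction. GPX6 was at 8.92 FPKM in control pig 5 and 1.04 FPKM in control pig 2, and GPX2 at 11.09 and 8.22 FPKM, against at most 0.671 FPKM in the other control pigs for both genes. These are the 2 pigs with the high epithelial marker sums.

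Unannotated loci lay within 10000 bases of 3 of the genes, namely 1 beside PTGES2, 5 beside or within PTGES3 and 3 beside PTGFR. Of these 9 loci 8 were tested, and 0 had P under 0.05 in limma, against 4.75% of all tested unannotated loci. A locus 787 bases from PTGES3 on the same strand (MSTRG.25009, chromosome 5, 21997587 to 21999553) was at 1.27 to 4.59 FPKM in the control pigs and at 0.652 to 3.11 FPKM in the rpFSH pigs, with P above 0.05. A pair of loci, MSTRG.29139 and MSTRG.29140, lay 5465 and 2312 bases from PTGFR and was highest in control pig 2, at 1.77 and 2.22 FPKM, against at most 0.260 and 0.221 FPKM in the other pigs. Control pig 2 was thus also the highest pig at this pair of loci, whose strand is not given. The remaining locus beside PTGFR, MSTRG.29142 at 4346 bases, was highest in control pig 4, at 1.96 FPKM, against 0.539 FPKM in control pig 2.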

How the data were processed

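Total RNA of 10 ovaries was sequenced, 1 library per pig. Per the labels the libraries were poly(A)-selected, whereas the study's methods describe removal of ribosomal RNA, and a treatment label spells rpFSH as fpFSH. The submitters' processing notes name Bowtie 0.12.2, HISAT2 2.0 and StringTie 1.3.0, and the genome is Sscrofa11.1. The authors deposited FPKM, listed as 0.0001 where a locus was not detected, and counts per locus. The study's methods describe a library with dUTP in the second strand. How the counts were made, and whether strand was used, is not given in the sources used here.

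The 10 genes, the marker lists and the pathway lists were chosen with earlier results of these data known. Protein-coding loci with a mean of at least 0.1 FPKM (15170) were tested on log2 (FPKM + 1) with limma 3.58.1 (trend, two-sided, Benjamini-Hochberg adjustment over all tested loci), and unannotated loci were fitted separately. The calling rule was P under 0.05 and a log2 ratio of mean FPKM past 1. Alternatives were pseudocounts of 0.1 and 0.01, other filters and scalings, edgeR 4.0.16 and DESeq2 1.42.0 on the deposited counts, a replicate block and leaving out pigs. On simulated counts with 200 of 15170 loci changed by 2 on the log2 scale, limma recovered 88.5%. Its median estimate for the raised loci was 1.56. The counts were drawn independently for each locus, so variation that loci share within a pig was not simulated. The changed loci were drawn at random and do not stand for the 10 genes. An exact permutation test of each difference over the 252 splits of the pigs (smallest possible p 0.0079) was added after the data were seen. Correlations used 100000 permutations (exact for 7 pigs). The genes named besides the 10 were those of the pathway list with P under 0.05, its 3 highest, the highest markers or those without overlap, and the 5 loci most correlated with PTGFR, PTGS2 and HPGD. The sets of high and low pigs for PTGS2 and the luteal markers, and the neighbouring loci, glutathione peroxidases and immune markers named, were chosen after their values were seen. P values measure the spread between pigs, each of which is 1 library. Counting errors cover counting only.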

Additional observations from a re-analysis of the deposited data

Results flagged for a closer look

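Of 20 sets of 5 pigs (10 genes in each group), 3 held a pig farther from the others than Dixon's 95% critical value. That value is 0.71 for the gap over the range of log2 (FPKM + 1). About 1 in 20 sets of independent, normally distributed values passes it by chance. The 10 genes share the same pigs, and the share of all tested loci flagged by this rule was not counted, so no excess is shown. PTGFR was highest in control pig 2, at 248 FPKM against 4.53 to 10.9 FPKM in the other control pigs, a gap of 0.799 of the range. PTGES2 was highest in rpFSH pig 1, at 1.94 FPKM against 0.496 to 0.690 FPKM in the other rpFSH pigs (0.819). PTGS1 was highest in control pig 5, at 0.742 FPKM against 0.189 to 0.309 FPKM in the other control pigs (0.748). Control pig 2 and rpFSH pig 1 were the pigs with the highest luteal marker sums, and control pig 5 was the pig with the highest smooth muscle and multiciliated epithelial marker sums. The part of those markers in these values was not tested.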

How the results depend on the processing

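Over 215 alternative values of the 10 differences, including an exact permutation test chosen after seeing the data, 187 kept their direction and their side of the threshold, 24 changed direction, 4 passed the threshold where the reported value did not, and 0 had an adjusted p under 0.05. PTGS2 changed direction to 0.12 and 0.21 with pseudocounts of 0.1 and 0.01, to 0.0021 with upper-quartile scaling, to 0.0298 with quantile normalization and to 0.21 without control pigs 2 and 5, and ranged from -0.16 to 0.25 when 1 pig was left out. PTGES ranged from -0.39 (without rpFSH pig 1) to 0.77 (without rpFSH pig 3), and PTGFR from -0.43 (without rpFSH pig 1) to 1.01 (without control pig 2). PTGFR was -1.36 in edgeR with and without the filter and -1.35 in DESeq2, which work on mean counts. PTGER4 was 0.18 and HPGD 0.0462 without control pigs 2 and 5. The calling rule took 1 of the 10 genes, PTGER3, without control pig 5, where 190 of 15055 loci were called (range 0 to 1 when 1 pig was left out), and P was under 0.05 for 1 gene, PTGES3 (limma, adjusted p = 0.648), without control pigs 2 and 5 where 7.35% of all loci had P under 0.05 (range 0 to 1 when 1 pig was left out, with PTGES3, PTGES2 or PTGER3, against 4.38%, 4.54% and 3.73% of all loci without control pig 2, rpFSH pig 1 and control pig 5). Among the other prostanoid genes 2, CBR1 (limma adjusted p = 0.648) and SLCO2A1 (limma adjusted p = 0.279), were called without control pigs 2 and 5, where 359 of 14875 loci were called. When 1 pig was left out 0 to 1 were called, namely PTGFRN without rpFSH pig 2, where 221 of 15189 loci were called. Among the KEGG loci 2 were called in edgeR, 3 in edgeR without the filter, 2 in DESeq2 and 1 without control pigs 2 and 5. In the same order, 473 of 15170, 658 of 18204, 526 of 15170 and 359 of 14875 of all loci were called. When 1 pig was left out 0 to 1 KEGG loci were called, with 1 without control pig 3, where 367 of 15193 loci were called. The cause of these changes was not tested. No pairing of pigs by equal replicate number was seen, as the correlation of their deviations ran from -0.413 to 0.111. These 5 correlations do not exclude a weak pairing. With the replicate block 0 of the 10 genes had P under 0.05, the limma P of PTGES3 was 0.141, and no call on the 10 genes changed. Scaling moved the median difference of all tested loci from -0.05 to -0.02 (upper quartile) or 0.01 (quantile). With 5 pigs a group, differences of PTGES and PTGFR within their wide intervals were not detectable, and HPGD rested on as few as 15 counts.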

Other observations

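Several prostanoid genes outside the 10 had patterns of their own, all chosen after their values were seen. SLCO2A1, the transporter that takes prostaglandins into cells, was at 2.06, 10.9, 1.58, 1.72 and 6.20 FPKM in the control pigs and at 4.23, 3.20, 4.39, 4.56 and 4.79 FPKM in the rpFSH pigs. The rpFSH pigs lay close together and between the 3 lowest and the 2 highest control pigs, the latter being pigs 2 and 5. Over all 10 pigs the limma difference was 0.21 (exact permutation p = 0.667). Without control pigs 2 and 5 it was 0.90, with an adjusted p of 0.279 in limma. PLA2G3, a secreted phospholipase, was at 9.03 FPKM in control pig 2, 6.57 FPKM in rpFSH pig 1 and 1.88 FPKM in rpFSH pig 4, against 0.0799 to 0.917 FPKM in the other 7 pigs, the same 3 pigs that led for PTGFR and PTGES.

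The loci most like PTGES, looked up after its values were seen, were GDE1, a phosphodiesterase (r = 0.978, rho = 0.988), GSTA2, a glutathione transferase (r = 0.969), SLC25A39, a mitochondrial carrier (r = 0.948), CYB5A, cytochrome b5 (r = 0.941), and UNC50 (r = 0.939). Without the 2 pigs farthest from the median of PTGES, r was 0.969 for GDE1 and 0.955 for GSTA2. The loci most like PTGER4 were KIF9 (r = 0.975), NTRK2 (r = 0.967), SOX6 (r = 0.963), RSPH14 (r = 0.962) and HOXA3 (r = 0.961).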
